A study of Mus musculus with 24 samples.

Results

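Smooth muscle genes were followed in the fat of single animals. The set consists of 10 genes taken by symbol, Acta2, Myh11, Tagln, Cnn1, Des, Lmod1, Actg2, Mylk, Smtn and Synpo2, out of 20624 genes in the RNA table. Each was found once in the table, and all 10 passed the filter on low values. The tissue was epididymal white fat of 19-week-old males of the outbred CD-1 mouse stock. In the BPA group (6 animals) the dams had received bisphenol A, an estrogen-like plasticizer, at 500 ug/kg/day by mouth from gestational day 9 to 18, and in the vehicle group (6 animals) the dams had received corn oil by the same route. The offspring of both groups ate a chow with 4% fat, and each gave 1 RNA library, depleted of ribosomal RNA and made with a SOLiD kit. Littermates are not marked in the labels, and every p-value counts each animal as an independent replicate.

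Smooth muscle cells shorten when calcium, bound to calmodulin, activates myosin light chain kinase, which phosphorylates the light chains of smooth muscle myosin and lets it pull on actin filaments. Thin filament proteins such as calponin and transgelin lie along the actin, and desmin filaments tie the contractile units together. Many genes of this apparatus are driven by serum response factor with its partner myocardin, which act at CArG boxes, and some by TEAD factors, which bind the element CATTCC. In fat, smooth muscle is found in the walls of blood vessels, and the epididymal fat pad also borders the epididymis and its ducts, which have smooth muscle coats of their own. In bulk tissue, more cells of a type and more RNA per cell cannot be told apart.

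All 10 genes were detected in every library, with the lowest value, 13.8 normalized read counts, at Actg2 in vehicle animal 3. Detection alone does not tell from which cells the RNA came. Fat cell genes showed the labelled tissue: 12 white adipocyte genes summed to between 144291 and 239884 in BPA animals and between 123535 and 236993 in vehicle animals. Values are the authors' normalized read counts, whose totals lay between 9628801 and 11582945 per library because they were rescaled, so sequencing depth is unknown. Some libraries stood apart. BPA animal 3 had the highest summed level of brown and beige fat genes, with Ucp1, the uncoupling protein of brown and beige fat, at 1463 against at most 39.4 in the other 11 animals. BPA animals 2 and 5 and vehicle animal 6 held the most RNA of duct epithelium, a list of 12 genes that summed to 4314 and 14501 in those BPA animals and 9010 in that vehicle animal, against 144 to 1696 in the other 9. Vehicle animal 3 had 273 genes at more than 2-fold the next highest animal, the most of any library. Folds, spreads and correlations of the 10 genes are given below with all 12 animals and again without the animals on which they rest.

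Start-site windows from RefSeq on GRCm38.p6, 250 bases before to 50 bases after the start, were available for 7 of the 10 genes, and no window is given for Myh11, Tagln and Actg2. The windows were searched on both strands for the CArG box, for a CArG box with 1 G or C allowed in its A and T core, and for CATTCC. The strict CArG box was in 0 of the 7 windows, against 1.63% of 32851 windows of all genes. The relaxed form was in the window of Acta2 alone, at 2 places, CCCTATATGG with its first base at -84 and CCTTGTTTGG at -34, and 9.98% of all windows hold it. CATTCC or its reverse complement GGAATG was in 4 windows, those of Acta2 at -146, Lmod1 at -130, Mylk at -158 and Smtn at -222, and in 14.7% of all windows. No matches overlapped. These 4 windows are shown because they hold every match found, which stand in capitals; the others of the set, Cnn1, Des and Synpo2, held none of these letters in this stretch. The windows lie at chr19:34255324-34255623 on the minus strand, chr1:135324563-135324862 on the plus strand, chr16:34784700-34784999 on the plus strand and chr11:3539243-3539542 on the minus strand, and each is written 5′ to 3′ along its gene.
Acta2: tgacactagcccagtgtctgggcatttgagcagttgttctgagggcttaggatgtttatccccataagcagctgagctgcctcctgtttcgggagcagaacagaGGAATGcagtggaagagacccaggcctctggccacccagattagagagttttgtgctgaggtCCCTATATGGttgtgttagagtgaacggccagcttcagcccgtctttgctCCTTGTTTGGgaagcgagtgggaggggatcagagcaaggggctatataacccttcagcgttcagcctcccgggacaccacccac
Lmod1: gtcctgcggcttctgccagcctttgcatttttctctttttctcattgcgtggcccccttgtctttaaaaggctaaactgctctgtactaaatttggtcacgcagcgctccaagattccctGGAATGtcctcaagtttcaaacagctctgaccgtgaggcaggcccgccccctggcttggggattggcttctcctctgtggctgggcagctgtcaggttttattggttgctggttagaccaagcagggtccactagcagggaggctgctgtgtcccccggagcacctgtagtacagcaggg
Mylk: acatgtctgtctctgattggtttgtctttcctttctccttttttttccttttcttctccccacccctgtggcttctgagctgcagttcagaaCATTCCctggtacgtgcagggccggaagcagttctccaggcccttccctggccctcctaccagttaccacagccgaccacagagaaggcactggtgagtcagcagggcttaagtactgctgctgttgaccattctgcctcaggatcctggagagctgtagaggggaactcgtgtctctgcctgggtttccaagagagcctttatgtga
Smtn: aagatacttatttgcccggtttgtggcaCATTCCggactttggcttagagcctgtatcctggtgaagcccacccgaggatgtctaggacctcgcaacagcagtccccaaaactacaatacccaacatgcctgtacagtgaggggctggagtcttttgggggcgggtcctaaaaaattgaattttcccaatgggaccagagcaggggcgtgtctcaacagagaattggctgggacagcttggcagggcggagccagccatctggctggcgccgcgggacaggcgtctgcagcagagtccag
A match is a description of the letters and not evidence of binding.

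Each gene was first read animal by animal, beginning with the 2 smooth muscle actins. Acta2, the alpha-actin of vascular smooth muscle, had 728 at the lowest, a median of 1984 and 5128 at the highest in BPA animals, against 961, 1381 and 2021 in vehicle animals. BPA animal 3 was highest and BPA animal 1 lowest of all 12, so that the BPA values lay on both sides of the vehicle values. Actg2, the gamma-actin typical of visceral smooth muscle, had 17.8, a median of 124.2 and 648 in BPA animals, against 13.8, 68.3 and 175 in vehicle animals. Its order was similar to that of Acta2 but its range far wider, 46.9-fold from the lowest to the highest animal against 7.04-fold for Acta2. Actins are alike in coding sequence, and the rule for reads that match several genes is not given in the sources used here, which leaves both values uncertain to that extent. The skeletal actin Acta1 was at 23.2 in BPA animal 3 and between 8.78 and 51.7 in the others, and so did not stand out with them.

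Myosin and its kinase each had 1 animal far above the rest. Myh11, the smooth muscle myosin heavy chain, had 1249 at the lowest, a median of 2266 and 13197 at the highest in BPA animals, against 1203, 1931 and 2737 in vehicle animals. Apart from animal 3 at 13197 and animal 2 at 3845, the BPA animals lay within the vehicle range. Mylk, the myosin light chain kinase, had 1672, a median of 2639 and 8787 in BPA animals, against 2002, 2731 and 3098 in vehicle animals. Its median was lower in BPA than in vehicle animals, and the high BPA mean rested on animal 3. The gene also encodes a longer non-muscle kinase and the small protein telokin, which gene-level values do not separate.

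The thin filament genes differed widely in how much they varied. Cnn1, calponin, which binds actin and restrains myosin, had 15.3 at the lowest, a median of 143 and 604 at the highest in BPA animals, against 15.3, 69.6 and 158 in vehicle animals. Both groups ran from the same low value, and BPA animals 2, 3 and 5 lay above all vehicle animals. Tagln, the actin cross-linker transgelin, had 201, a median of 393 and 556 in BPA animals, against 253, 309 and 448 in vehicle animals. It was the only one of the 10 genes whose highest value was not in BPA animal 3 but in BPA animal 2. Its locus overlaps that of Pcsk7, a proprotein convertase, in the RefSeq gene table, and whether counting used the strand is not given in the sources used here. Pcsk7 itself was at 200 to 292 in BPA animals and 219 to 282 in vehicle animals.

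Lmod1, leiomodin 1, which starts new actin filaments, had 49.3 at the lowest, a median of 117 and 279 at the highest in BPA animals, against 47.8, 75.9 and 99.9 in vehicle animals. 4 of the 6 BPA animals, 2, 3, 4 and 5, lay above all vehicle animals and the other two lay near the lowest vehicle animals. Smtn, smoothelin, an actin-binding protein of contractile smooth muscle, had 143, a median of 168 and 337 in BPA animals, against 151, 160 and 194 in vehicle animals. Animals 3 and 4 were the only BPA animals above the vehicle range.

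The structural genes completed the set. Des, desmin, the intermediate filament protein of all muscle types, had 171 at the lowest, a median of 304 and 747 at the highest in BPA animals, against 212, 272 and 333 in vehicle animals. Synpo2, synaptopodin 2, an actin-binding protein of smooth muscle and of striated muscle Z-discs, had 4927, a median of 8333 and 11301 in BPA animals, against 4970, 6195 and 8300 in vehicle animals. Here BPA animals 1, 3, 4 and 6 lay above all vehicle animals while animals 2 and 5 were near the bottom, an order unlike that of the other 9 genes. In none of the 10 genes were the groups free of overlap, and 4 of 12528 genes tested had groups that did not overlap (0.0319%).

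**Figure D1:**
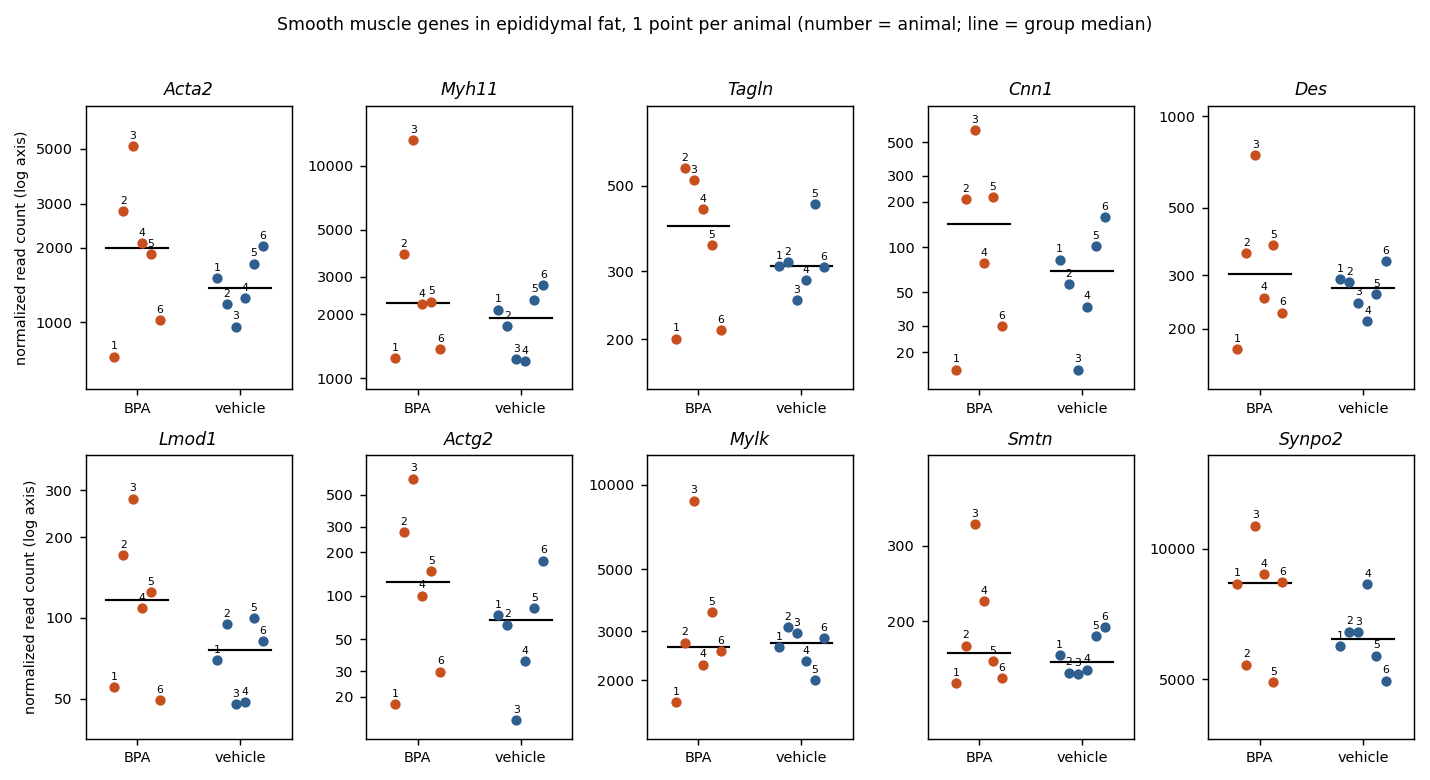
Normalized read count of each smooth muscle gene on a log axis, with 1 point per animal, its number beside it, BPA animals left and vehicle animals right, and a line at the group median. BPA animal 3 is the highest point in 9 panels, and the groups overlap in all 10.

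The height of BPA animal 3 was uneven across the genes. Relative to the median of the other 11 animals it was 8.81-fold for Actg2, 7.67-fold for Cnn1 and 6.27-fold for Myh11, between 2.88-fold and 3.39-fold for Acta2, Lmod1, Mylk and Des, 2.10-fold for Smtn, 1.76-fold for Synpo2 and 1.67-fold for Tagln. This animal was the highest of the 12 for 9 of the 10 genes and for 908 of all genes tested (7.25%). It exceeded the next highest animal more than 2-fold for 4 of them, Myh11 (3.43-fold), Cnn1 (2.80-fold), Mylk (2.51-fold) and Actg2 (2.34-fold), and for 66 of all genes tested (0.527%). A ratio within a library, which removes a factor common to all its genes, shows the same unevenness. It does not remove an adjustment that differs from gene to gene. Per unit of Tagln, Myh11 was 25.5 in BPA animal 3 and between 4.21 and 8.87 in the other 11 animals, and Mylk was 17.0 against 4.47 to 12.0. The ratio of Synpo2 to Tagln in that animal, 21.8, lay inside the range of the others, 9.73 to 41.4. These ratios were chosen after the values were seen and are descriptions.

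**Figure D2:**
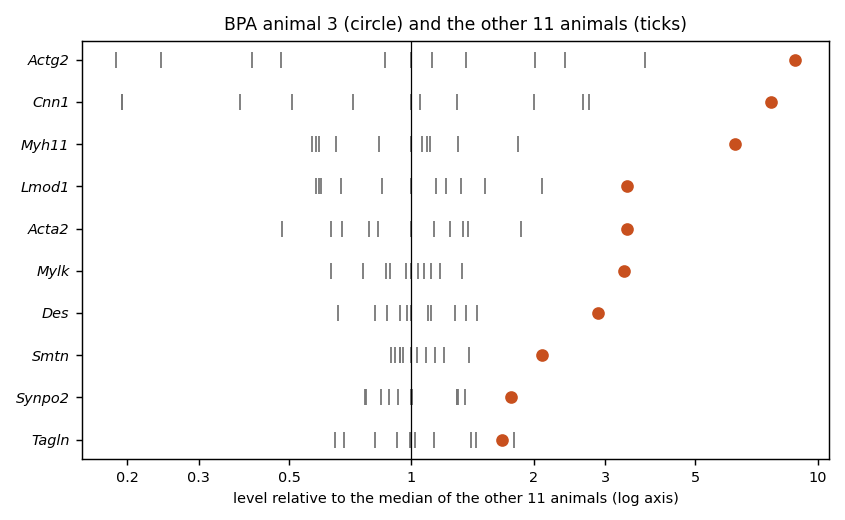
Level of each gene relative to the median of the other 11 animals on a log axis, with BPA animal 3 as a circle and each other animal as a tick. The circle lies at 8.81 for Actg2 and at 1.67 for Tagln, where 1 tick lies beyond it.

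The study's contrast, prenatal BPA against vehicle, was fitted with limma over all 12528 genes that passed the filter, as log2 fold of value + 1, BPA over vehicle. None of the 10 genes passed the threshold of 0.05 after Benjamini-Hochberg adjustment, and neither did any other gene (0%; 239 genes, 1.91%, had an unadjusted p under 0.05, none of them in the set). An exact permutation of the group labels over all genes, with 0.0022 the smallest p it allows, called 0 genes as well and put 289 at an unadjusted p under 0.05. The 4 largest fitted folds were those of Actg2 at 0.90 ± 0.80 (SE), Cnn1 at 0.73 ± 0.80, Lmod1 at 0.63 ± 0.38 and Myh11 at 0.61 ± 0.48. Single animals moved the first 2 strongly: without vehicle animal 3, Actg2 was at 0.50 and Cnn1 at 0.35, and without BPA animal 1 they were at 1.40 and 1.26. Acta2 followed at 0.41 ± 0.38, Synpo2 at 0.28 ± 0.19, Des at 0.23 ± 0.28, Mylk at 0.23 ± 0.31, Smtn at 0.18 ± 0.19 and Tagln at 0.16 ± 0.25. The smallest unadjusted limma p was 0.12, at Lmod1, and the adjusted p was 0.9997 for each of the 10. All 10 folds were above 0, as were those of 51% of all genes tested, and the median over the 10 was 0.35 against 0.0032 over all genes.

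Without BPA animal 3 the folds shrank in every gene. Actg2 was then at 0.38 ± 0.73 (SE), Lmod1 at 0.36 ± 0.33, Cnn1 at 0.22 ± 0.73, Myh11 at 0.16 ± 0.30, Synpo2 at 0.16 ± 0.18 and Acta2 at 0.12 ± 0.32. Tagln at 0.04, Smtn at 0.01, Des at -0.02 and Mylk at -0.08 lay close to 0, so that 8 of 10 were above 0 beside 51.1% of all genes, none was called (0%), and the median was 0.14. With BPA animal 3 kept and the 3 libraries richest in duct epithelium left out, which leaves 4 BPA and 5 vehicle animals, 9 of 10 folds were above 0 with a median of 0.42, and Tagln was at -0.02. Synpo2 was then at 0.48 ± 0.13 (limma, unadjusted p = 0.0039, adjusted p = 0.99), with BPA values from 8307 to 11301 and vehicle values from 5672 to 8300. Those Synpo2 groups did not overlap, as was so for 135 of 12105 genes in that setting (1.12%), while 422 genes (3.49%) had an unadjusted p under 0.05 and 0 were called (0%). When these 3 libraries and BPA animal 3 were both left out, which leaves 3 BPA and 5 vehicle animals, only Synpo2 (0.38) and Smtn (0.06) were above 0, and the median was -0.21. That last setting was chosen after seeing the data, and no gene was called in it either. The 95% intervals were wide, with half-widths between 0.40 and 1.73 on the log2 scale for the 10 genes in the full fit, against a median of 0.34 over all genes tested. Each of these 10 intervals included 0, so the fitted folds could not be told from 0. Larger folds were not excluded either, since the interval of Actg2 ran from -0.83 to 2.63.

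**Figure D3:**
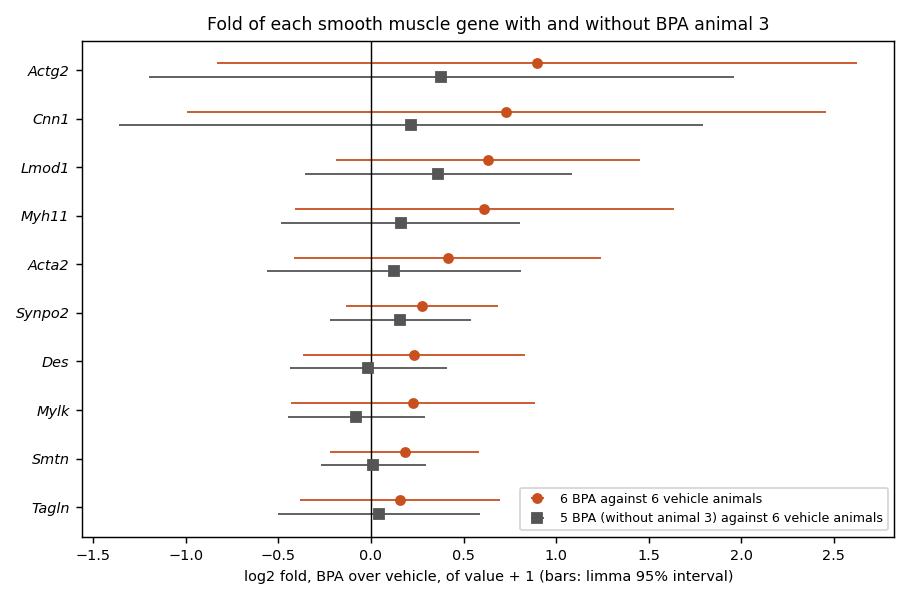
Log2 fold of value + 1, BPA over vehicle, of each gene with its limma 95% interval, for all 12 animals (circles) and without BPA animal 3 (squares). Every interval includes 0, and each square lies left of its circle.

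The same 10 genes are in a deposited table of the authors' own comparison, with unadjusted p-values in that table from 0.36 to 0.866. Those p-values came out the same when 3 vehicle animals (2, 3 and 5) were set against the other 9, so they do not address BPA against vehicle.

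The spread between animals differed widely from gene to gene, and over all 12 animals each gene of the set lay above the median of all genes tested. The SD of log2(value + 1) within groups was 1.60 for Actg2 and for Cnn1, above that of 98.5% of all genes tested for each, and the median SD over all genes was 0.27. It was 0.95 for Myh11 (95.1%), 0.76 for Acta2 (92.2%), 0.75 for Lmod1 (91.7%), 0.61 for Mylk (87.3%), 0.55 for Des (84.3%) and 0.49 for Tagln (80.5%). Synpo2 at 0.37 (67.8%) and Smtn at 0.35 (65.3%) had the lowest SDs of the set over all 12 animals. Without BPA animal 3, Actg2 and Cnn1 stayed above 97.9% of genes each, with 20.05-fold and 14.1-fold ranges over 11 animals, whereas Mylk lay above 59.0% and Smtn above 31.5%. Vehicle animals alone had SDs of 1.21 for Actg2 and 1.15 for Cnn1 at the top and of 0.16 for Smtn, 0.23 for Des, 0.23 for Mylk and 0.25 for Synpo2 at the bottom. Without the 3 duct-rich libraries the SD was 1.69 for Cnn1 and 1.68 for Actg2, and that of Synpo2 was 0.21, above 40.2% of genes.

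The proportion of the 2 smooth muscle actins therefore differed between animals. There were 2.45 to 12.6 units of Actg2 per 100 of Acta2 in BPA animals, the highest in animal 3 and then 9.87 in animal 2, against 1.44 to 8.68 in vehicle animals, the highest in animal 6. The log2 ratio averaged -4.11 ± 0.94 in BPA and -4.60 ± 0.86 in vehicle animals (SD, n = 6 each), a difference of 0.48 (exact permutation test over 924 assignments, two-sided, p = 0.377). BPA animals 2 and 3 lay above all vehicle animals and vehicle animal 3 below all BPA animals, and the other animals overlapped. The difference was 0.26 without BPA animal 3, 0.20 without vehicle animal 3, 0.72 without BPA animal 1 and 0.39 without the 3 duct-rich libraries.

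Most of the genes varied together from animal to animal. Over the 45 pairs the median Pearson r of log2(value + 1) across 12 animals was 0.81, and 34 pairs had a permutation p under 0.05 after adjustment over the 45. Without BPA animal 3 it was 29 pairs. The share of such pairs among other genes was not computed, so these counts do not set the 10 genes apart. The 36 pairs without Synpo2 had a median r of 0.88 and a median Spearman rho of 0.82, with 36 positive values of either. By r, Cnn1 and Actg2 were the closest pair, with r = 0.98 and rho = 0.96 (permutation, adjusted p = 0.00011 for r and 0.00045 for rho), and by rho it was Acta2 and Actg2, at 0.97. Leaving out BPA animal 3 kept Cnn1 and Actg2 at r = 0.98 and lowered the median of the 36 pairs to 0.79. Of these 36, 26 then passed the adjusted threshold by r, against 34 with that animal. Without the 2 animals farthest from the median of the first gene of a pair, the median of the 36 was 0.75, with 34 of 36 positive. Within BPA animals alone the median was 0.92, and within vehicle animals alone 0.64, with 29 of 36 positive. Without the 3 duct-rich libraries the median of the 36 was 0.90 over 9 animals, and without BPA animal 3 as well it was 0.76 over 8 animals, with 33 of 36 positive.

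Mylk kept to the others mainly through that animal. Its r with the mean of the 10 genes, which includes Mylk itself, was 0.82 over 12 animals and 0.43 over the 11 without BPA animal 3. With Acta2 it was 0.72 and then 0.34, and with Smtn 0.73 and then -0.04. Desmin was the exception, with r = 0.92 to Mylk over 12 animals and 0.77 over 11 (permutation, adjusted p = 0.012 over 11).

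Synpo2 followed a different order. Its 9 pairs had a median r of 0.08 over 12 animals, none with an adjusted permutation p under 0.05, while rho was negative in 9 of 9. Without BPA animal 3 the r was negative in 9 of 9, with a median of -0.57, and 3 of the 9 passed the adjusted threshold. Des was the strongest, at r = -0.84 and rho = -0.82 (permutation, adjusted p = 0.0040 for r and 0.0098 for rho), followed by Cnn1 at -0.71 and Myh11 at -0.68. In vehicle animals alone the median over the 9 pairs was -0.65, with 9 negative, and in BPA animals alone it was 0.12. After quantile normalization, which forces every library to the same distribution, the 9 values over 12 animals lay between 0.11 and 0.64, so the sign of r with animal 3 included depends on scaling. It also depends on the duct-rich libraries: without these 3, and with BPA animal 3 included, the r was positive in 9 of 9 with a median of 0.44, and without all 4 it was negative in 8 of 9 with a median of -0.33.

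**Figure D4:**
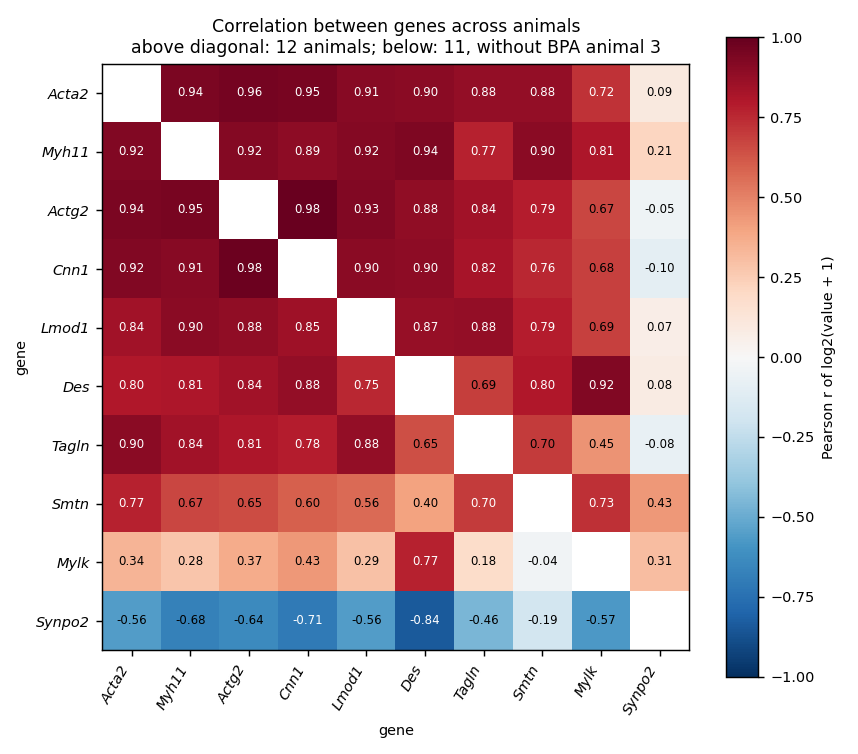
Pearson r of log2(value + 1) between each pair of genes, over 12 animals above the diagonal and over 11 animals without BPA animal 3 below it. The bottom row, Synpo2 without that animal, runs from -0.84 to -0.19, and most other cells are positive.

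The order of animals shows the same split. Among the 9 genes other than Synpo2, BPA animal 3 was among the 3 highest animals for 9, BPA animal 2 for 7, BPA animal 5 for 4 and vehicle animal 6 for 3. BPA animal 1 was among the 3 lowest for 8, BPA animal 6 for 7 and vehicle animal 3 for 7. The BPA group thus had members near both ends of the order. For Synpo2 the 3 lowest were BPA animals 5 and 2 and vehicle animal 6, and BPA animals 1 and 6 ranked 4 and 3 of 12.

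Duct epithelium markers were high in several of the same animals, and most brown and beige fat markers stood out in BPA animal 3. The duct epithelium list, with Lrp2, an endocytic receptor, and Pax8, a transcription factor of duct cells, summed to 144, 757 and 14501 (lowest, median, highest) in BPA animals and to 286, 1224 and 9010 in vehicle animals. Animals 2 and 5 of the BPA group and animal 6 of the vehicle group, the 3 with the highest sums, had Actg2 at 277, 148 and 175, the highest values after BPA animal 3, and the 3 lowest values of Synpo2, 5407, 4927 and 4970. Over the 11 animals without BPA animal 3, the log sum of the list had r = 0.69 with the mean of the 10 genes, as a description. BPA animal 3 had high smooth muscle values with a duct sum of 1315, the sixth of 12, in which Pax8 was at 2.8 and the ciliary factor Foxj1 at 0.4 while E-cadherin, Cdh1, was at 464. Its brown and beige fat list summed to 4603, against 902 to 1626 in the other animals. Of the 10 genes of that list that passed the filter, 7 were highest of all 12 animals there. Ucp1 and Elovl3, which did not pass the filter, were highest there as well. Other genes of the list were not: Prdm16 was at 147.6 there and 150.1 in vehicle animal 1, and Ppargc1a at 325.5 there and 395.9 in vehicle animal 2. Zic1 and Fabp3 were at 0.8 and 0 there, and at most 1.2 and 1.3 in any library. Among the remaining 11 the log sum of the brown and beige fat list had r = 0.65 with the mean of the 10 genes, also as a description. In these 11 animals the sum held Pdk4 at 301 to 1118 and Ppargc1a at 175.4 to 395.9, while Ucp1 was at most 39.4 and Cidea at most 37.2. That r therefore says little about Ucp1 or Cidea. The genes of that list differed from each other in their order. Cidea, a lipid droplet protein of brown fat, was at 37.2 in BPA animal 1, where smooth muscle genes were low, and at 7.8 in vehicle animal 6. Slc27a2 had its highest values, 599, 375 and 212, in BPA animal 5, vehicle animal 6 and BPA animal 2. The part of duct, other epithelial or brown or beige fat tissue in the smooth muscle values was not tested.

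**Figure D5:**
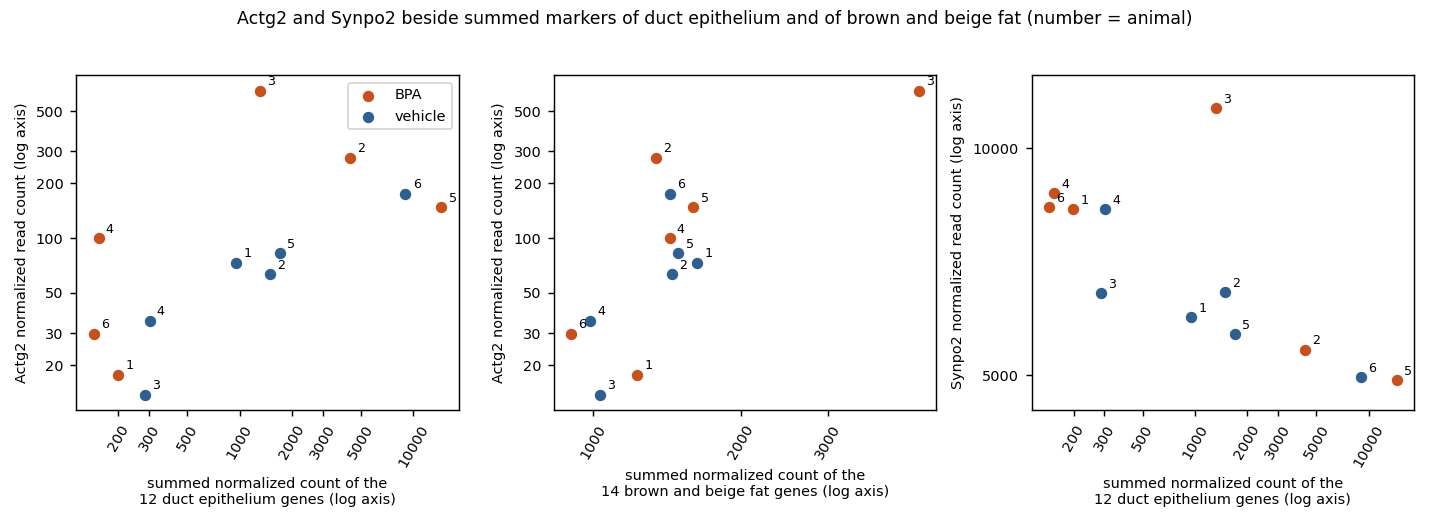
Left and middle, Actg2 against the summed level of the duct epithelium list and of the brown and beige fat list; right, Synpo2 against the duct epithelium list, all as normalized read counts on log axes, numbered by animal. BPA animals 2 and 5 and vehicle animal 6 lie high for Actg2 and low for Synpo2, and BPA animal 3 lies apart in all 3 panels.

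Markers of other muscle types were measured beside the set, since Des and Synpo2 are shared with them. The 18 skeletal muscle genes summed to 489, 523 and 706 (lowest, median, highest) in BPA animals and 485, 520 and 587 in vehicle animals, and BPA animal 3 ranked 10 of 12. The 10 cardiac genes summed to 10.7, 52.0 and 1162 in BPA animals and 14.4, 34.4 and 252 in vehicle animals. That high value was Tnnt2, cardiac troponin T, at 1130 in BPA animal 3, and its next values, 156 in BPA animal 5 and 220 in vehicle animal 6, were in libraries rich in duct epithelium. Of the other genes of that list, Myh6 was at most 3.7 and Myl2 at most 2.0 in any library. The cardiac actin Actc1 was highest in BPA animal 3, at 22.2 against 0 to 12.7 in the other 11 animals. Tnni3, cardiac troponin I, reached 15.6 in BPA animal 5 and 12.8 in vehicle animal 6. The epididymal epithelium list, 10 genes of the sperm duct lining, summed to 4.74 to 213 in BPA animals, the lowest of all being animal 3, and to 11.0 to 4777 in vehicle animals, the highest being animal 6, with Lcn8, Lcn9 and Cst11 at 1 or less everywhere. The list of vas deferens and seminal vesicle genes summed to 4.58 to 40.6 in BPA animals and 11.4 to 77.4 in vehicle animals, with Svs3a at 1 or less everywhere.

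Summed pericyte and endothelial genes did not single out BPA animal 3. Its sums ranked 8 of 12 for 12 pericyte genes, which ranged from 13417 to 17543 in BPA animals and from 12975 to 16540 in vehicle animals. They also ranked 8 of 12 for 15 endothelial genes, at 10322 to 12734 in BPA animals and 9829 to 12749 in vehicle animals. For 12 myofibroblast and matrix genes they ranked 2, at 49767 to 80972 in BPA animals and 58537 to 103790 in vehicle animals. For 10 mesothelial genes they also ranked 2, at 629 to 4155 in BPA animals and 1503 to 5465 in vehicle animals. The sum of 12 vessel wall matrix genes in BPA animal 3 ranked 2 as well. It ran from 19017 to 28144 in BPA animals and from 20398 to 36743 in vehicle animals.

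The wider contractile pathway was then counted from lists of genes, of which 0 genes in any list passed the adjusted threshold (0% of all genes did). Of 29 further contractile and thin filament genes tested, 19 had folds above 0 and 10 below, beside 51% above 0 of all genes, and the median fold was 0.04. Without BPA animal 3, 14 of the 29 were above 0, beside 51.1% of all genes, with a median of -0.01. The 3 with the smallest p were Nexn, nexilin, an actin-filament binding protein, at a log2 fold of 0.58 (95% interval 0.05 to 1.10, limma), Pdlim7 at 0.39 and Pgm5, aciculin, a protein of adherens-type junctions, at 0.67. Pgm5 was at 3361 in BPA animal 3 and between 390 and 1126 in the others. Myl6, a myosin light chain, reached at most 19.0 in any library, and the cytoplasmic actin Actg1 at most 7.04, low values for genes used by nearly all cells. Whether reads of genes with many near-identical copies were left out of the counting is not given in the sources used here.

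Genes that set the phosphorylation of myosin light chain were 14 above and 6 below 0 among 20 tested, with a median fold of 0.06, and 12 were above 0 without BPA animal 3, with a median of 0.03. Named by smallest p, Dapk3, a kinase that acts on myosin light chain and its phosphatase, was at -0.44 (95% interval -0.84 to -0.04), Prkg1, the cyclic GMP-dependent kinase that relaxes smooth muscle, at 0.33 (0.02 to 0.64), and Ppp1r12b, a myosin phosphatase targeting subunit, at 0.38 (-0.01 to 0.77). None passed the adjusted threshold in limma. Prkg1 was highest in BPA animal 3, at 278.4 against 132.8 to 202.5 in the others, and so was Ppp1r12b, at 163.1 against 63.4 to 114.1. Dapk3 was at 30.4 there, within the 26.7 to 54.8 of the others. Among 18 channel and calcium-handling genes 14 were above and 4 below 0, with a median of 0.16, beside the same 51%. Of the 18, 10 were above 0 without BPA animal 3, with a median of 0.04. The smallest p were at P2rx1, an ATP-gated channel, with 0.75 (0.10 to 1.39), Abcc9, a subunit of ATP-sensitive potassium channels, with 0.20, and Stim1, the calcium sensor of the reticulum, with -0.13. These were 0.61, 0.19 and -0.12 without BPA animal 3.

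Receptors that act on smooth muscle were 8 above and 5 below 0 of 13 tested, with a median of 0.06, and 6 were above 0 without BPA animal 3, with a median of -0.05. Chrm3, a muscarinic receptor, was at -0.45, Ednrb, an endothelin receptor, at -0.26 and Avpr1a, a vasopressin receptor, at -0.40, each with an interval that includes 0. Transcription factors of smooth muscle were 7 above and 9 below 0 of 16 tested, with a median of -0.0031, and the 3 smallest p were at Heyl (0.26), Elk1 (-0.14) and Mef2a (0.09). Serum response factor, Srf, was at 147 in BPA animal 3 and 137 to 203 in the others. Myocardin, Myocd, its smooth muscle coactivator, was at 248 in BPA animal 3 and 24.0 to 78.0 in the others; both were singled out after their values were seen, for their role. Of 12 genes of the vessel wall matrix 3 were above and 9 below 0, with a median of -0.06, and of 5 cytoplasmic actin and nonmuscle myosin genes 2 were above and 3 below.

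The genes most like the set were found by Pearson r, across 12 animals, to the mean of the 10 genes' standardised log2 values, over the 12528 genes tested and leaving out the 10 themselves. Tpm2, a tropomyosin that lies along smooth muscle actin, was closest at r = 0.98, with 2058 in BPA animal 3 against 241 to 905 in the others. Sytl2 followed at 0.95 and Myl9, the regulatory myosin light chain of smooth muscle, at 0.94, with 2073 in BPA animal 3 against 473 to 1448 in the others. The next 7 were 6330403A02Rik, Mrvi1, Pgm5, Myom1, Cryab, Rab27b and 6230409E13Rik, with r from 0.94 to 0.92. Without BPA animal 3 the 10 closest were Tpm2 (0.96), Cilp, Mgp, Tpm1, Pde3a, Tspan11, Reln, Myl9, Bace2 and Mmrn1 (0.90), and Tpm2 and Myl9 were in both. These values describe likeness across animals that share a normalization, and carry no test.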

How the data were processed

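RNA from 12 fat samples was analysed. The values are a signal, read counts per gene that the authors normalized between libraries, without making the totals equal. The submitters' processing notes name edgeR and the build mm9. The aligner, the counter, the annotation and the strand setting are not stated in the labels or file headers used here. Rescaling by median ratios changed nothing, since the factors of the deposited values were 1 in every library. Above the gene list stood 13 panel genes, of which 12 were repeats and were dropped. The p-values the authors deposited for 9522 genes with a maximum of at least 100 were read from a second table. The MBD windows were not used here, because no mm9 annotation joins them to genes.

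The 12528 genes that reached 10 in 6 or more libraries were fitted as log2(value + 1) by limma (3.58.1, R 4.3.3; trend over intensity), which understates changes of low genes. All tests were two-sided, p-values were adjusted over all genes tested by Benjamini-Hochberg with a threshold of 0.05, and the fit was tested on simulated data. Pairs of genes were compared by Pearson and Spearman correlation with 100000 permutations in scipy 1.17.1. Precision is set by 6 animals per group, since depth is unknown. Animals with the same number in both groups were not treated as pairs.

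The 10 genes, 22 gene lists (294 of 297 genes found) and the tests were chosen with earlier results of these data known. Named genes are the 10, per pathway list any gene past the threshold or else the 3 with the smallest p, per marker list its summed range and members never above 1, and the 10 other genes most like the set. Alternatives were the replicate block, pseudocounts of 0.5 and 5, no filter and a mean of at least 50, quantile, median ratio and equal-total scaling, library weights, exact permutation, and leaving out each library or those rich in duct epithelium; equal totals, leaving out those and BPA animal 3 together, and leaving them out of the correlations and spreads were chosen after seeing the data.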

Additional observations from a re-analysis of the deposited data

Results flagged for a closer look

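A total of 22 groups of 6 values were screened for a lowest or highest animal set apart from the rest, by the gap to its nearest neighbour over the range of the group against Dixon's critical value at 95%. Chance marks about 1 group in 20, and 5 were marked here. In BPA animals these were Myh11 in animal 3 at 13196.7 normalized read counts, with 0.78 of the range below it, Mylk in animal 3 at 8787 (0.74), Cnn1 in animal 3 at 603.8 (0.66) and Des in animal 3 at 747.1 (0.64). In vehicle animals it was Tagln in animal 5 at 447.7 (0.67). The 4 values of BPA animal 3 come from 1 library and are not independent of each other.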

How the results depend on the processing

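No gene passed the adjusted threshold under any alternative, and 322 of the recomputed values kept their direction and their side of the threshold or moved within the spread between animals. With the replicate block, the fit called 0 genes; the block cannot move a mean difference in this balanced design, and the exact p of the log2 ratio of Actg2 to Acta2 (0.48) was 0.562 in place of 0.377. Deviations of same-numbered animals correlated at 0.19, 0.16, -0.05, 0.40, 0.17 and -0.57 for numbers 1 to 6, so the numbers were not read as pairs, and animals of number 4 were the only ones to correlate best with their own number. Leaving out the 3 libraries rich in duct epithelium turned Tagln to -0.017 and put Synpo2 at 0.48 and the median of the 10 at 0.42. Leaving out 1 library at a time gave -0.015 to 0.41 for Des and -0.079 to 0.40 for Mylk, both negative only without BPA animal 3. It gave 0.38 to 1.40 for Actg2, 0.22 to 1.26 for Cnn1, 0.16 to 0.84 for Myh11, 0.12 to 0.69 for Acta2, 0.36 to 0.86 for Lmod1, 0.20 to 0.72 for the ratio of Actg2 to Acta2 and 0.14 to 0.55 for the median of the 10 genes, with 8 to 10 of them above 0. The highest median, 0.55, was without BPA animal 1 and the lowest without BPA animal 3. With BPA animal 3 and the 3 duct-rich libraries left out together, 2 of 10 genes were above 0, and Acta2 was at -0.17, Myh11 at -0.089, Tagln at -0.26, Cnn1 at -0.56, Des at -0.26, Lmod1 at -0.043, Actg2 at -0.25 and Mylk at -0.27. The median r over the 45 pairs was 0.88 without the 3 duct-rich libraries and 0.70 without BPA animal 3 as well, against 0.81, both settings chosen after seeing the data. The cause was not tested.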

Other observations

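BPA animal 3 also held RNA of other genes seen in smooth muscle or close to it at high levels, chosen after their values were seen. Ldb3, a PDZ and LIM domain protein of muscle Z-discs, was at 216 there against 29.8 to 116 in the other 11 animals, and phospholamban, Pln, which restrains the calcium pump, at 66.9 against 30.5 to 49.97. Csrp1, a LIM protein common in smooth muscle, was the lowest of 12 in the same animal, at 1473 against 1505 to 3034. Kcnmb1, the smooth muscle subunit of the large-conductance potassium channel, was highest not in BPA animal 3 (115) but in BPA animal 5 (168), with vehicle animal 6 at 155.

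The low end of the set was also shared. Vehicle animal 3 had the lowest Actg2 of all 12 animals, at 13.8. Of all libraries it held the most genes at over 2 times the next highest animal, 273 of 12528. Its macrophage marker sum was 33075, against 9738 to 12705 in BPA animals and 11143 to 15033 in the other vehicle animals.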
